A study of Mus musculus with 288 samples.

Results

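The 10 genes described here build and load MHC class I in mouse cells: H2-K1, H2-D1, H2-T23 and H2-Q7 (heavy chains), B2m (the light chain), Tap1 and Tapbp (peptide loading), Psmb8 and Psmb9 (immunoproteasome) and Nlrc5 (a regulator). They were chosen by name from the 24781 genes of the deposited count table, and 9 of the 10 had a count in at least 1 well that was kept. The cells were lineage-labelled cells, positive for Scgb1a1 and low in CD24, sorted singly into wells from lungs of 4-month C57BL/6 mice with the genotype Scgb1a1-CreER;Rosa26-mTmG. Scgb1a1-CreER is an inducible recombinase under the club cell secretoglobin promoter, and Rosa26-mTmG is a reporter that changes colour after recombination. The sort kept cells with the epithelial marker Epcam and without CD45 (leukocytes) or CD31 (endothelium), so every class below shares that gate, and no induction schedule or untreated animal is in the labels. There were 286 cell wells and 2 negative control wells.

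Wells with totals above 2340 counts, 10 times the higher control, were used: 227 of the cell wells. Of these, 63 had Sftpc (surfactant protein C) at 1% or more of the total and are called Sftpc wells, 74 had Scgb3a1 (a secretoglobin of airway secretory cells) at 1% or more and are called Scgb3a1 wells, and 90 had neither and are called other wells. No well met both limits (0 wells). The Sftpc share was 2.07% in the well just inside its limit and 0.734% just outside, and the Scgb3a1 share was 1.01% and 0.876%. No label says which animal a cell came from, so the wells count as 1 sample: no p-value was computed, and a level is the pooled count of a class per 1000000 of its counts (CPM) with an exact 95% Poisson interval. Intervals cover counting error only, and no source used here says whether molecular barcodes were collapsed to molecules, so PCR copies may be among the counts. A gene is called measured in a comparison when the 2 classes held at least 20 counts of it, and differences are counted when they pass 2-fold. For a gene at 0 counts, the level given as allowed is 3 counts over the class total. This is under the exact upper bound, 12.5 against 15.3 CPM in Sftpc wells.

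The classes carried markers beyond the genes that set them. Leaving out Sftpc, all 10 measured genes of an alveolar type 2 (AT2) list were past 2-fold higher in Sftpc wells than in other wells, and all 7 measured club cell genes were lower. Of all genes measured in that comparison 17.4% were past 2-fold higher and 9.68% lower. Leaving out Scgb3a1, all 4 genes of a list headed by it were higher in Scgb3a1 than in other wells, beside 8.13% of all genes measured there. The lists were chosen with earlier results of these data known, so these counts describe the classes and are no independent check of them. The club cell gene Scgb1a1 made up 4.49% of counts in Sftpc wells, 22.8% in Scgb3a1 wells and 30.5% in other wells. Totals per well had medians of 3529, 6940.5 and 5406 in these classes. Of 13 immune markers, Ptprc, Cd3e, Cd79a, Coro1a, Laptm5, Tyrobp, Fcer1g, Itgam and Nkg7 were at 0 in all 3 classes. The summed immune level was 1836 CPM in Sftpc wells, 439 of its 442 counts being Lyz1, against 9.74 and 13.9 CPM in Scgb3a1 and other wells.

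Class I molecules present peptides from the cell's own proteins to CD8 T cells and to receptors of natural killer cells. The proteasome cuts proteins, the TAP transporter carries the peptides into the endoplasmic reticulum, tapasin helps to load them, and a heavy chain folded with beta-2 microglobulin takes them to the surface. Most nucleated cells express the pathway, interferons raise it, and the regulator NLRC5 acts on promoters that share a set of short elements.

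Member promoters are shown first because H2-K1 and H2-D1 differ between the cell classes below while B2m differs less and H2-Q7 was not detected. Each line holds the 180 bases before the RefSeq start (GRCm38.p6), 5′ to 3′ in the direction of transcription, with matches on either strand in capitals. The motifs searched were GGNNTTNCC (kappaB-type), AANNGAAA (interferon regulatory factor type), TGACG (CRE half-site) and CCAAT (Y box).
H2-K1, chr17:34000348-34000527, minus strand: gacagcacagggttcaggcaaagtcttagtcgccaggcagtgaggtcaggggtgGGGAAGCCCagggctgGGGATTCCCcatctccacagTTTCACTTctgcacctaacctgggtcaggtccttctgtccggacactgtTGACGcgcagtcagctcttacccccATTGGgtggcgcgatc
H2-D1, chr17:35262914-35263093, plus strand: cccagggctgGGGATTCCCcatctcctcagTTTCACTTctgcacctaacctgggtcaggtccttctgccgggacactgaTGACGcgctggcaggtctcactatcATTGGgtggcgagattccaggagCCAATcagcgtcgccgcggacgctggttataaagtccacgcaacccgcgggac
H2-Q7, chr17:35438975-35439154, plus strand: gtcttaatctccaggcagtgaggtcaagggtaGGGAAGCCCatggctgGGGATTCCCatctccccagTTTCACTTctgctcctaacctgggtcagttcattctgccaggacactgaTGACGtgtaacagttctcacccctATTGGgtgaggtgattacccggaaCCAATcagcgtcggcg
B2m, chr2:122147507-122147686, plus strand: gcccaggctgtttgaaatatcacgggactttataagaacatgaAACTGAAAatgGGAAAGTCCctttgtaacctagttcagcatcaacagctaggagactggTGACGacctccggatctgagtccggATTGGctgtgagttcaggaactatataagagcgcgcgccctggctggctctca

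These 4 windows held all 4 motifs, with no overlapping matches (0 pairs), as did 33 of 32851 RefSeq promoter windows of the same length (0.100%). Singly, the kappaB-type motif was in 9.96% of all windows, the interferon regulatory factor type in 15.1%, the CRE half-site in 14.8% and the Y box in 27.5%. In H2-K1 the plus-strand kappaB-type match began 110 bases before the start, the interferon type match 90, the CRE half-site 41 and the Y box 16. H2-D1 had the same order, beginning at 170, 150, 101 and 76 bases, and H2-Q7 at 132, 113, 64 and 40. H2-K1 and H2-Q7 each had a further kappaB-type match on the minus strand, and H2-D1 and H2-Q7 a further Y box. These further matches depend on where a window ends. The H2-D1 window begins inside the stretch that corresponds to the minus-strand kappaB-type match of H2-K1, so such a match could not be found there. In B2m the interferon type match, at 137 bases, came before the kappaB-type match at 126. Of the other members, the H2-T23 and Psmb9 windows held 2 of the 4 motifs, Tap1 and Tapbp 1, and Psmb8 0. Nlrc5 had no entry in the promoter table. H2-K1 had a second entry 14 bases downstream, not shown, whose window also held a further Y box. A match is a run of letters and says nothing of binding in these cells. Which of the motifs, if any, NLRC5 acts on was not tested.

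The 10 genes together made 1438 CPM in Sftpc wells (95% interval 1290 to 1597, 346 counts), 1085 CPM in Scgb3a1 wells (997 to 1179, 557 counts) and 823 CPM in other wells (746 to 906, 416 counts). At least 1 member was counted in 62 of 63, 73 of 74 and 88 of 90 wells. For this sum the ratio of Sftpc over Scgb3a1 wells was 1.32 (1.15 to 1.52). By set of table columns, described below, it was 0.691 (0.43 to 1.06), 1.48 (1.18 to 1.84) and 1.02 (0.717 to 1.48). Only in set 2 did the interval exclude no difference. The pooled log2 ratio was 0.41, beside an all-gene median of 0.20. Trimmed mean factors, used below, were 1.17 in Sftpc and 0.905 in Scgb3a1 wells, which narrows this difference. The order of the classes was not the same for each member: the pooled levels of H2-K1, H2-D1 and B2m were highest in Sftpc wells, and those of H2-T23, Tapbp, Tap1, Psmb8, Psmb9 and Nlrc5 in Scgb3a1 wells. For each member but H2-K1 and H2-D1, the interval between the 2 highest classes included no difference or, for H2-Q7 and Nlrc5, too few counts were found to form a ratio, and B2m was higher in Scgb3a1 than in Sftpc wells by all 3 other scalings given below (log2 ratio of Sftpc over Scgb3a1 wells -0.25 to -0.18).

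H2-K1 (chr17:33996017-34000347, minus strand, GENCODE M21 on GRCm38) is a classical heavy chain of the H2 complex. Its level in single Sftpc wells ran from 0 to 2128 CPM with a median of 333. In Scgb3a1 wells it ran from 0 to 960 CPM with a median of 202, and in other wells from 0 to 1117 CPM with a median of 190. The ranges overlap, since each class held wells with 0 counts, and the highest wells in CPM were Sftpc wells. In counts the median was 1 in each class, and the most in a well was 7 in Sftpc, 8 in Scgb3a1 and 5 in other wells. The CPM values of single wells thus depend on their totals, which were lowest in Sftpc wells. Pooled, H2-K1 stood at 461 CPM (379 to 555, 111 counts) in Sftpc wells, 273 CPM (229 to 322, 140 counts) in Scgb3a1 wells and 208 CPM (170 to 252, 105 counts) in other wells. It was 2.22-fold higher in Sftpc wells than in other wells (interval 1.68 to 2.93) and 1.69-fold higher than in Scgb3a1 wells (1.31 to 2.18). Between Scgb3a1 and other wells it differed 1.31-fold (1.01 to 1.71).

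H2-D1 (chr17:35262730-35267499, plus strand), the second classical heavy chain of this strain, showed a like order. Single Sftpc wells ran from 0 to 2107 CPM with a median of 373, Scgb3a1 wells from 0 to 1085 CPM with a median of 201, and other wells from 0 to 994 CPM with a median of 207. These ranges also overlap, and the median counts per well were 2, 1.5 and 1, with at most 7, 8 and 5 in a well. The pooled level was 457 CPM (376 to 551, 110 counts) in Sftpc wells, 240 CPM (199 to 286, 123 counts) in Scgb3a1 wells and 228 CPM (188 to 273, 115 counts) in other wells. H2-D1 was 2.01-fold higher in Sftpc wells than in other wells (1.53 to 2.63) and 1.91-fold higher than in Scgb3a1 wells (1.46 to 2.49). Scgb3a1 and other wells did not differ beyond counting error (1.05-fold, 0.81 to 1.37).

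**Figure D1:**
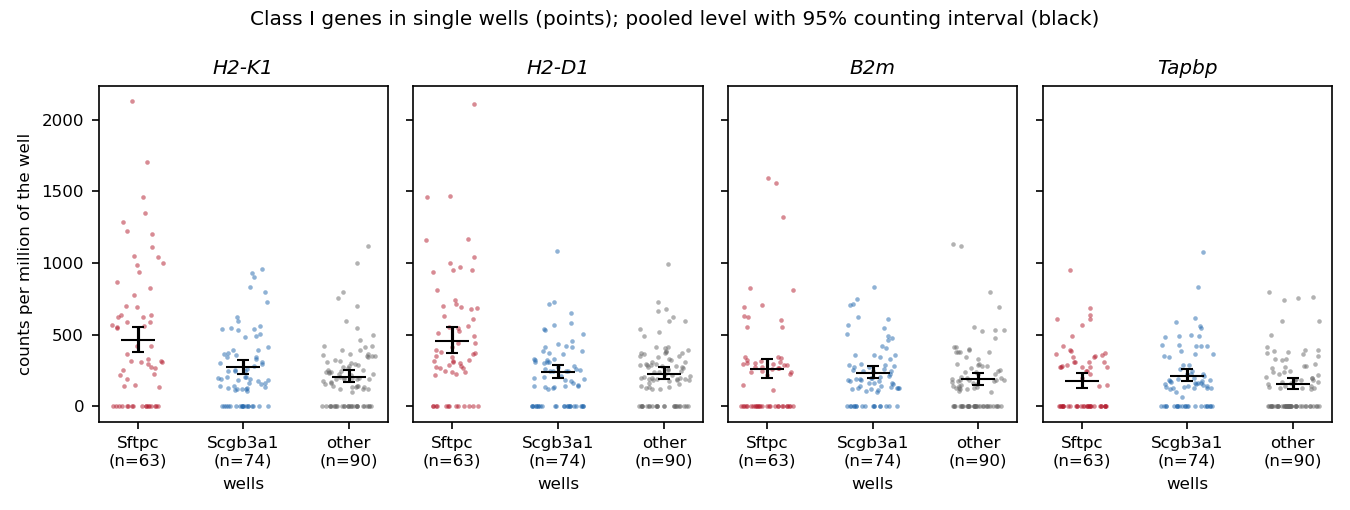
Level in CPM of H2-K1, H2-D1, B2m and Tapbp (vertical axis) in each kept well, by class (horizontal axis: 63 Sftpc, 74 Scgb3a1 and 90 other wells). Points are wells, spread sideways for visibility, and black bars give the pooled level with its exact 95% Poisson interval. The upper wells of H2-K1 and H2-D1 are Sftpc wells, up to 2128 and 2107 CPM, and all classes have wells at 0. In counts the most in a well was 7 in Sftpc and 8 in Scgb3a1 wells for both genes, so heights also depend on the totals of wells.

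The wells of different depth were also thinned to 3151 counts, which left 44 Sftpc, 74 Scgb3a1 and 86 other wells and left out 19, 0 and 4 shallower ones. Before thinning H2-K1 had a count in 73.0%, 75.7% and 68.9% of Sftpc, Scgb3a1 and other wells. At equal depth the shares were 64.3%, 52.4% and 46.5%. Here and below, shares before thinning are over all wells of a class. Those of Sftpc and other wells thus also cover the shallower wells left out at equal depth. For H2-D1 the shares were 79.4%, 67.6% and 72.2% before and 67.9%, 47.1% and 52.8% after thinning. At equal depth both genes were thus found in the largest share of wells in the Sftpc class. Class I is expressed by most nucleated cells, so no class here serves as one that should lack it. The 2 control wells held 0 counts of every member in 275 counts, which allows up to 10909 CPM and does not bound a background near the levels seen.

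H2-K1 and H2-D1 are related copies with stretches of identical sequence, and no source used here says how the authors' counting treated reads that fit both. In the GENCODE M21 transcripts used for this check, 6.94% of the 50-base stretches of H2-K1 were also in H2-D1. Within the last 500 bases, next to the poly(A) tail from which cDNA was primed, the share was 0.443%. H2-K1 made up 50.2% (43.4 to 57.0, exact binomial) of the counts of both genes in Sftpc wells, 53.2% (47.0 to 59.4) in Scgb3a1 wells and 47.7% (41.0 to 54.5) in other wells. Of the 204 wells with a count of either gene, 43 had equal counts of both. The genes were counted together in 40 of 63, 41 of 74 and 44 of 90 wells, and neither was counted in 7, 9 and 7. Summed, which does not depend on how reads were divided between them, they stood at 918 CPM (801 to 1048) in Sftpc wells, 512 CPM (452 to 578) in Scgb3a1 wells and 435 CPM (380 to 497) in other wells. The sum was 2.11-fold higher in Sftpc than in other wells (1.74 to 2.55) and 1.79-fold higher than in Scgb3a1 wells (1.49 to 2.15).

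The wells fell into 3 successive sets of 96 table columns. The labels do not say what a set is, and the classes were spread unevenly over them: 6, 17 and 40 Sftpc wells, 38, 31 and 5 Scgb3a1 wells, and 38, 33 and 19 other wells. In other wells the sum of H2-K1 and H2-D1 was 370 CPM in set 1 (291 to 465), 413 CPM in set 2 (332 to 507) and 646 CPM in set 3 (487 to 841). In Sftpc wells it was 328 CPM in set 1 (164 to 587, 11 counts), 1170 CPM in set 2 (927 to 1459) and 938 CPM in set 3 (784 to 1113). In Scgb3a1 wells it was 401 CPM in set 1, 599 CPM in set 2 and 701 CPM in set 3 (18 counts). The set with most Sftpc wells was thus also the set in which other wells held most of these heavy chains. Within sets the ratio of Sftpc over other wells for the sum was 0.885 in set 1 (0.424 to 1.68), 2.83 in set 2 (2.07 to 3.87) and 1.45 in set 3 (1.05 to 2.03). On the log2 scale H2-K1 alone gave 0.20, 1.68 and 0.39, and H2-D1 alone gave -0.53, 1.30 and 0.68. The direction held in sets 2 and 3 and the size did not, and the part of the set in the pooled ratio was not tested. For the sum, the ratio of Sftpc over Scgb3a1 wells was 0.818 in set 1 (0.395 to 1.53). It was 1.95 in set 2 (1.47 to 2.58) and 1.34 in set 3 (0.815 to 2.33). The intervals of sets 1 and 3 include no difference, and here too the part of the set was not tested.

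**Figure D2:**
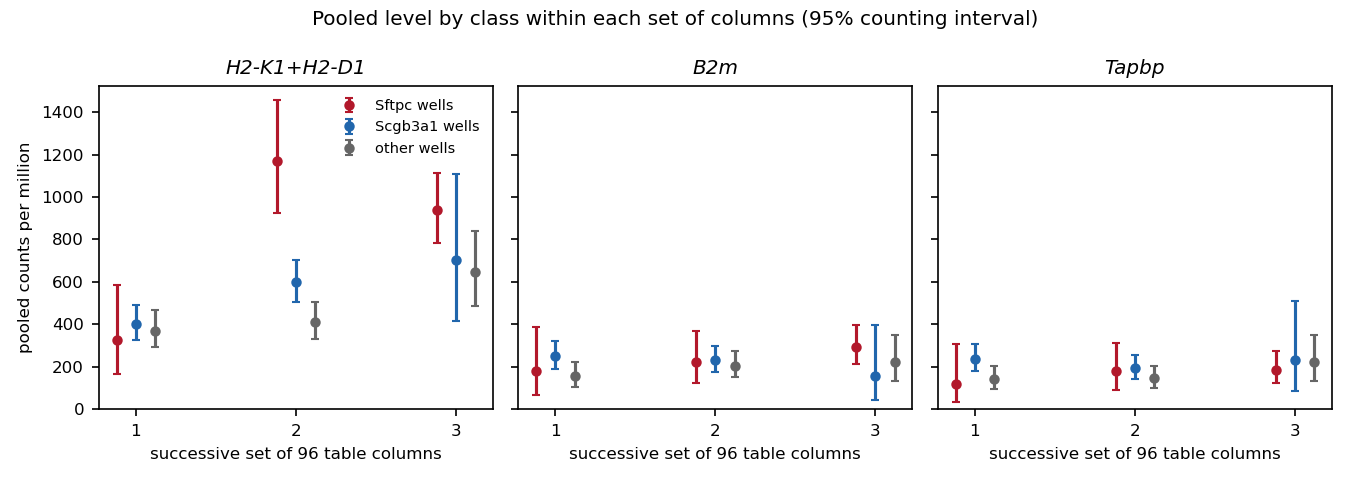
Pooled level in CPM (vertical axis) of H2-K1 plus H2-D1, B2m and Tapbp by class within each successive set of 96 table columns (horizontal axis), with exact 95% Poisson intervals. Sftpc wells lie above other wells for the heavy chains in set 2 (1170 against 413 CPM) and set 3 (938 against 646 CPM) but not in set 1 (328 against 370 CPM).

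Depth and scaling also moved the heavy chain ratios. Only 10 Sftpc wells had totals above 4680 counts, 20 times the higher control. Among wells above that limit the log2 ratio of Sftpc over other wells was 0.50 for H2-K1 and 0.76 for H2-D1. The median log2 ratio of Sftpc over other wells over all 3854 measured genes was 0.18, and it was -0.14 with trimmed mean (TMM) factors, -0.05 with median-of-ratios factors and -0.13 when totals left out the 10 most abundant genes. Relative to the all-gene median of 0.18, H2-K1 was higher by 0.97 and H2-D1 by 0.83 on the log2 scale. With TMM factors the log2 ratios were 0.83 and 0.69, with the same direction and below the 2-fold limit. H2-D1 stood so near the limit that it fell to 0.98 without the well of most summed member counts in each class, and to 0.94 when wells down to 410 counts were kept. The small Tapbp ratio of Sftpc over other wells changed sign, from 0.16 to -0.16. For Sftpc over Scgb3a1 wells the all-gene median log2 ratio was 0.20, and it was -0.18 with TMM factors. Relative to that median of 0.20, H2-K1 was higher by 0.56 and H2-D1 by 0.73.

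B2m (chr2:122147686-122153083, plus strand) encodes beta-2 microglobulin, the light chain that class I heavy chains need to reach the surface. Single wells ran from 0 to 1591 CPM (median 240) in the Sftpc class, from 0 to 833 CPM (median 188) in the Scgb3a1 class and from 0 to 1132 CPM (median 147) in the other class, and the ranges overlap. The median count per well was 1 in each class, so these medians in CPM depend on the totals of wells. Pooled B2m was 258 CPM (198 to 330, 62 counts), 236 CPM (196 to 282, 121 counts) and 188 CPM (152 to 230, 95 counts). The Sftpc over other ratio was 1.37 (0.978 to 1.91), which includes no difference. Between Sftpc and Scgb3a1 wells B2m differed 1.09-fold (0.791 to 1.5). Its log2 ratio of Sftpc over other wells within sets was 0.20, 0.12 and 0.40. At equal depth B2m was found in 49.3% of Sftpc, 50.5% of Scgb3a1 and 41.0% of other wells, against 57.1%, 77.0% and 61.1% before thinning. Thus the light chain did not follow the 2-fold difference of H2-K1 and H2-D1 in the pooled levels, although the interval of the B2m ratio overlaps those of H2-K1 and H2-D1 and the difference between the ratios was not tested. B2m shares no 50-base stretch with any H2 transcript (0%), and it lies inside Patl2 on the opposite strand, which had 0 counts.

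H2-T23 (chr17:36029773-36032855, minus strand) encodes Qa-1, a nonclassical heavy chain that presents leader peptides of other class I chains to natural killer receptors. It had 4 counts in 4 of 63 Sftpc wells, 19 counts in 14 of 74 Scgb3a1 wells and 3 counts in 3 of 90 other wells. Its pooled level was 16.6 CPM (4.53 to 42.6), 37.0 CPM (22.3 to 57.8) and 5.94 CPM (1.22 to 17.4). H2-T23 was 6.24-fold higher in Scgb3a1 than in other wells (1.84 to 32.9), and no single well gave more than 10.5% of the Scgb3a1 counts. By set the counts were 9, 8 and 2 in Scgb3a1 wells and 1, 0 and 2 in other wells. At equal depth it was found in 10.2% of Scgb3a1 and 1.81% of other wells, against 18.9% and 3.33% before. Sftpc wells held 0.449 times the Scgb3a1 level (0.111 to 1.35), past the 2-fold limit but with an interval that includes no difference. Of its 50-base stretches 9.84% were in other H2 transcripts, and 8.43% of those in its last 500 bases, so its counts are less certain than those of B2m.

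H2-Q7 (chr17:35439155-35443773, plus strand) encodes a Qa-2 chain, which can be anchored in the membrane by a lipid. It had 0 counts in all 227 kept wells, which allows up to 12.5 CPM in Sftpc wells, 5.85 CPM in Scgb3a1 wells and 5.94 CPM in other wells (3 counts of each class total). H2-Q7 shared 19.3% of its 50-base stretches with H2-Q6, which was also at 0, but none in the last 500 bases (0%). Of 19 further class I or class I-like chains, 3 had a count in Sftpc wells, 9 in Scgb3a1 wells and 10 in other wells. The neonatal Fc receptor chain Fcgrt was the 1 measured gene among them, with 20.8 CPM in Sftpc, 35.1 CPM in Scgb3a1 and 23.8 CPM in other wells.

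Tapbp (chr17:33915899-33929292, plus strand) encodes tapasin, which bridges empty class I molecules to the peptide transporter. Single wells ran from 0 to 950 CPM (median 153) in the Sftpc class, from 0 to 1074 CPM (median 164) in the Scgb3a1 class and from 0 to 801 CPM (median 126) in the other class, again with overlap. The median count per well was again 1 in each class. The pooled level was 175 CPM (126 to 236, 42 counts), 214 CPM (176 to 258, 110 counts) and 156 CPM (124 to 195, 79 counts). Tapbp differed 1.12-fold between Sftpc and other wells (0.749 to 1.64) and 1.37-fold between Scgb3a1 and other wells (1.02 to 1.85). At equal depth it was found in 44.7%, 45.3% and 35.1% of wells, against 52.4%, 70.3% and 51.1% before. Zbtb22 overlaps Tapbp on the same strand and had 20 counts.

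Tap1 (chr17:34187553-34197225, plus strand) encodes a chain of the TAP transporter and was sparse. It had 3 counts in 3 Sftpc wells, 7 counts in 4 Scgb3a1 wells and 4 counts in 4 other wells, or 12.5, 13.6 and 7.92 CPM. With 1.72-fold between Scgb3a1 and other wells (0.438 to 8.03) no difference in Tap1 was detectable at this depth. Tap2, the partner chain of TAP, had 1, 20 and 7 counts, and was 2.81-fold higher in Scgb3a1 than in other wells (1.14 to 7.87).

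Of 9 further genes of peptide loading and trimming, 5 were measured between Sftpc and other wells: none was past 2-fold higher (0, beside 17.4% of all genes), 1 was lower (beside 9.68%), and the median log2 ratio was -0.22 against 0.18 for all genes. The lower gene was Ide, a metalloprotease, at 16.6 CPM against 49.5 CPM. The chaperones Calr and Canx of the loading complex differed less: Calr (calreticulin) stood at 602, 768 and 701 CPM in Sftpc, Scgb3a1 and other wells. Canx (calnexin) stood at 183, 230 and 212 CPM. Pdia3, on the same list, stood at 54.0, 89.6 and 85.1 CPM. Its ratio of Sftpc over other wells was 0.635, with an interval that includes no difference (log2 -1.68 to 0.27). Between Scgb3a1 and other wells 6 were measured, of which Tap2 was past 2-fold higher and 0 were lower, with a median of 0.14, beside 8.13% higher and 9.24% lower of all genes.

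Psmb8 (chr17:34197721-34201454, plus strand) encodes a catalytic subunit that replaces a constitutive one in the immunoproteasome. It had 12 counts in 9 Sftpc wells, 27 counts in 20 Scgb3a1 wells and 13 counts in 12 other wells. The pooled level was 49.9 CPM (25.8 to 87.1), 52.6 CPM (34.7 to 76.5) and 25.7 CPM (13.7 to 44.0). Psmb8 was 2.04-fold higher in Scgb3a1 than in other wells (1.02 to 4.32), and the Sftpc over other ratio was 1.94 (0.808 to 4.61). The Scgb3a1 call stood at the limit, a log2 ratio of 1.03, and was below it without set 3 (0.79), without the well of most summed member counts in each class (0.93), with a class limit of 5% (0.94), without 12 wells with ciliated markers (0.98) and with equal weight per well (0.99). By set it had 10, 12 and 5 counts in Scgb3a1 wells and 4, 7 and 2 in other wells. At equal depth Psmb8 was found in 12.5%, 14.5% and 7.58% of Sftpc, Scgb3a1 and other wells, against 14.3%, 27.0% and 13.3% before.

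Psmb9 (chr17:34181987-34187764, minus strand), another catalytic subunit of the immunoproteasome, had 2, 8 and 2 counts, or 8.31, 15.6 and 3.96 CPM. The Scgb3a1 over other ratio of 3.94 had an interval of 0.786 to 38.1. Psmb9 and Tap1 lie on opposite strands and overlap by 212 bases, and no source used here says whether the counting used strand. The third catalytic subunit, Psmb10, had 7, 23 and 10 counts and was 2.26-fold higher in Scgb3a1 than in other wells (1.04 to 5.33). It is on a list of 5 further genes of the immunoproteasome and its activators, all measured there. Of these 1 was past 2-fold higher and 0 lower, beside 8.13% and 9.24% of all genes, with a median log2 ratio of 0.34. On the same list Psme1 stood at 125 against 210 CPM, a log2 ratio of -0.75 (-1.22 to -0.29).

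The rest of the proteasome gives the scale for these values. Of 14 constitutive proteasome genes, all measured, none passed 2-fold between Scgb3a1 and other wells (0 genes, median log2 ratio 0.11), beside 8.13% higher and 9.24% lower of all genes. The largest ratio among these 14 genes was that of Psmb2, 1.93-fold (log2 ratio 0.95, 0.19 to 1.74). This is near the 2.04-fold of Psmb8. In Sftpc against other wells 0 were higher and 3 were lower, where 17.4% and 9.68% of all measured genes were: Psma7 at 49.9 against 164 CPM, Psma5 at 37.4 against 109 CPM and Psma1 at 37.4 against 91.0 CPM. Of 5 further genes of the immunoproteasome and its activators, 3 were measured in that comparison and 2 were lower: Pomp (an assembly factor, 87.3 against 182 CPM) and Psme3 (an activator subunit, 20.8 against 41.6 CPM, ratio interval 0.147 to 1.36).

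Nlrc5 (chr8:94434356-94527272, plus strand), the transactivator of class I genes, had 2 counts, both in 1 Scgb3a1 well, and 0 in Sftpc and other wells. No ratio was formed, and Sftpc wells allow up to 12.5 CPM. Of 28 other regulators, 8 were measured between Sftpc and other wells and 0 passed 2-fold, beside 17.4% higher and 9.68% lower of all genes, with a median log2 ratio of 0.25. Irf1, an interferon regulatory factor, stood at 58.2, 64.3 and 65.3 CPM in Sftpc, Scgb3a1 and other wells. Between Scgb3a1 and other wells 10 were measured, 2 higher and 1 lower, beside 8.13% and 9.24% of all genes. Nfkb1 (33.1 against 13.9 CPM, ratio interval 0.942 to 6.82) and Rela (72.1 against 35.6 CPM, 1.12 to 3.78), subunits of NF-kappaB, were past 2-fold higher, and the Nfkb1 interval includes no difference. Socs3, a feedback inhibitor of cytokine signals, was lower (76.0 against 198 CPM).

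Counted over all members, the comparison of Sftpc with other wells had 5 measured, of which 2 were higher (H2-K1 and H2-D1) and 0 lower, with a median log2 ratio of 0.95. Over all 3854 measured genes, 17.4% lay past 2-fold higher and 9.68% past 2-fold lower (median 0.18). Scgb3a1 against other wells had 6 measured, of which 2 were higher (H2-T23 and Psmb8) and 0 lower, with a median of 0.42. Over all 4536 measured genes, 8.13% lay higher and 9.24% lower (median -0.02). Sftpc against Scgb3a1 wells had 6 measured, 0 higher and 1 lower (H2-T23), with a median of 0.03, beside 19.7% higher and 13.2% lower of 3834 measured genes and a median of 0.20. With 5 or 6 measured members, each of these counts stands on 1 or 2 genes. The comparisons share wells, so their counts are not independent of each other.

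**Figure D3:**
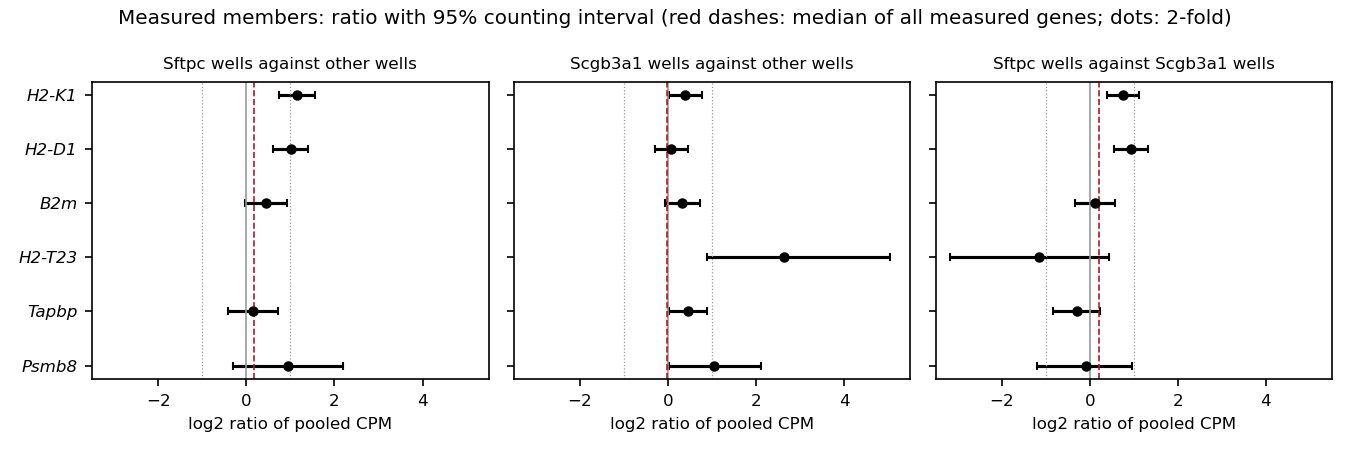
Log2 ratio of pooled CPM (horizontal axis) for each member measured in each of 3 class comparisons, with 95% counting intervals. The red dashed line is the median of all measured genes and dotted lines mark 2-fold. H2-K1 (1.15) and H2-D1 (1.01) lie at or past the 2-fold line in Sftpc against other wells, and H2-T23 (2.64) and Psmb8 (1.03) in Scgb3a1 against other wells.

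Interferon response genes were followed because interferons raise class I expression. Of 30 such genes, 10 were measured between Scgb3a1 and other wells, and 4 were past 2-fold higher and 0 lower, with a median log2 ratio of 0.59. Of all genes measured in that comparison 8.13% were higher and 9.24% lower. Ifit1, an interferon-induced RNA-binding protein, had 27 counts in 16 Scgb3a1 wells against 4 counts in 4 other wells (6.65-fold). Ifitm1, a membrane protein that restricts viruses, had 51 against 9 counts (5.58-fold), Ly6a (the surface antigen Sca-1) 159 against 38 (4.12-fold) and Ifi27 31 against 10 (3.05-fold). By set Ifit1 had 19, 6 and 2 counts in Scgb3a1 wells and 2, 1 and 1 in other wells.

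In Sftpc wells 6 genes of the list were measured against other wells. Of these 1 was past 2-fold higher (Ifi27, 2.52-fold, 0.998 to 6.51), 3 were lower and 2 were neither, with a median log2 ratio of -1.04, beside 17.4% higher and 9.68% lower of all measured genes. Ly6a stood at 12.5 against 75.2 CPM, Ifitm3 at 41.6 against 137 CPM and Lgals3bp, a secreted glycoprotein, at 29.1 against 71.3 CPM. Ifit1 and Ifitm1 had 0 counts in Sftpc wells, which allows up to 12.5 CPM each. No relation between these genes and the members was tested.

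**Figure D4:**
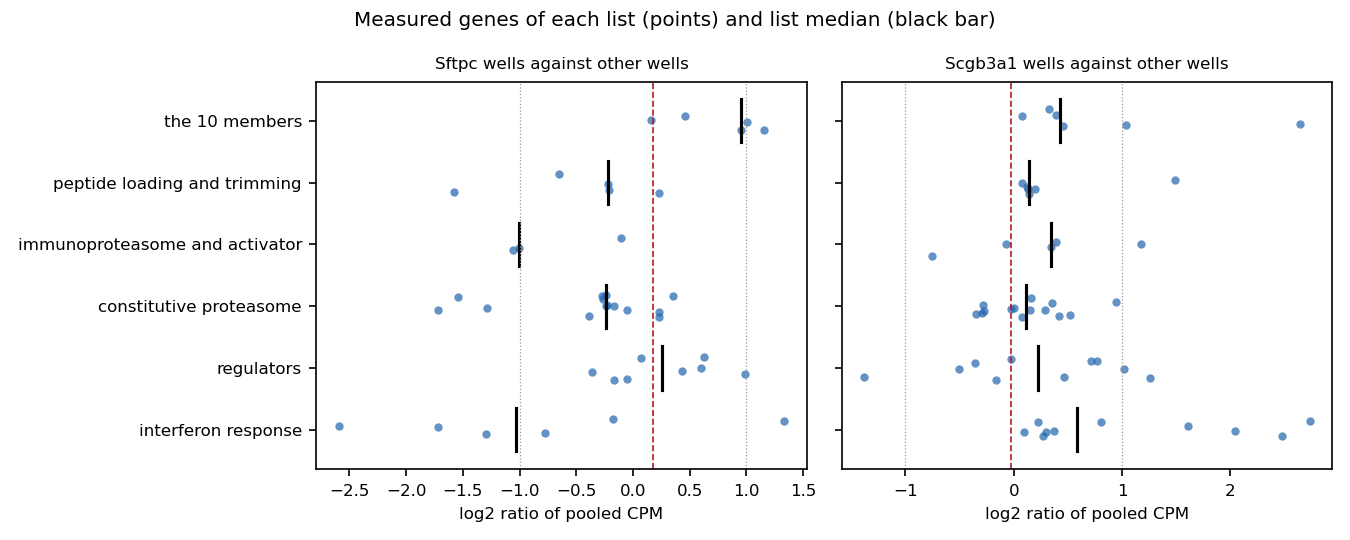
Log2 ratio of pooled CPM (horizontal axis) for each measured gene of 6 lists (rows), in Sftpc against other wells and in Scgb3a1 against other wells. Points are genes, black bars list medians, the red dashed line the median of all measured genes and dotted lines 2-fold. The members' median is 0.95 on the left and 0.42 on the right, and that of the interferon list is -1.04 and 0.59.

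MHC class II genes, which present peptides from outside the cell and are known to be expressed in AT2 cells, separated the classes far more. All 4 measured genes were past 2-fold higher in Sftpc than in other wells, beside 17.4% of all genes, with a median log2 ratio of 5.38. Cd74, the invariant chain, stood at 1579 against 37.6 CPM (42.0-fold). H2-Aa had 113 counts in Sftpc wells against 1 in other wells, and H2-Ab1 (59 counts) and H2-Eb1 (31 counts) had 0 in other wells. Against a floor of 3 counts over the class these were 41.3-fold and 21.7-fold higher, with lower interval bounds of 32.5 and 16.6.

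Among single wells of a class at equal depth, H2-K1 counts varied more than counting error in Sftpc wells and not in other wells. The variance over the mean, which is 1 for counting error alone, was 1.81 in Sftpc, 1.11 in Scgb3a1 and 0.87 in other wells. For H2-D1 it was 1.39, 1.12 and 1.03, and for B2m 1.56, 1.06 and 1.25. The Poisson interval of the pooled H2-K1 level in Sftpc wells does not cover this extra variation between wells. The thinned wells came from all 3 sets of columns, in which pooled H2-K1 in Sftpc wells was 179, 667 and 430 CPM. The part of the sets in the variation was not tested. Spearman's rho between H2-K1 and H2-D1 over the 44 thinned Sftpc wells was 0.34, over 74 Scgb3a1 wells 0.12 and over 86 other wells 0.00, as a description of sparse counts that share each well's depth.

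By rank correlation over thinned wells, the 5 genes most like the sum of H2-K1 and H2-D1 in the Sftpc class were Rpl18 (rho 0.42), Napsa (0.41), Ldha (0.40), Fabp5 (0.38) and Lmo4 (0.33), of 425 genes counted in at least 50% of the 44 wells. Over all 204 thinned wells the highest was Fosb, at 0.26 of 331 genes. Napsa, an aspartic protease of the surfactant pathway, is itself on the AT2 list. Correlations of this size in sparse counts single out no gene.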

How the data were processed

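The authors deposited 1 table of whole-number counts per gene symbol for 286 cell wells and 2 control wells, without normalization. Per the labels' protocols, spike-in RNA was added, RNA was fragmented by heat, and barcoded primers with a run of T bases started cDNA synthesis at the poly(A) tail, and the cDNA was amplified by PCR. The submitters' processing notes name STAR and mm10; no source used here gives the annotation, the counting tool, strand use or barcode collapse. No 2 wells held identical counts (0 pairs), all columns were mapped, and doublets were not called, though 0 wells met both class limits. Kept wells held 2384 to 15088 counts.

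Counts were summed per class with Python 3.11.15, numpy 2.4.6, pandas 2.3.3 and scipy 1.17.1. Levels have exact Poisson, shares of wells exact Clopper-Pearson and ratios exact conditional binomial intervals (95%), which cover counting error only. TMM factors came from edgeR 4.0.16 in R 4.3.3; no count model was fitted, since the wells are 1 sample. No ratio was formed where both classes held 3 counts or fewer. The ratio script was tested on simulated data. Named genes were the 10 members and, from the other lists, measured genes past 2-fold, at most 4 per list and comparison by size, and likeness genes the top 5 by Spearman's rho over thinned wells. Fcgrt, Calr, Canx, Pdia3, Irf1, Psme1, Psmb2, Tap2 and Psmb10 in Sftpc wells and the immune markers were named outside that rule. Members and lists were chosen with earlier results of these data known. RefSeq promoters were matched for 9 of 10 members.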

Additional observations from a re-analysis of the deposited data

How the results depend on the processing

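Alternatives numbered 23, of which 1, the removal for each member of its well of most counts in each class, was chosen after seeing the data. Of 319 member ratios recomputed, 295 stayed within the main counting interval, 23 moved outside it and 1 reversed: H2-D1 in Sftpc over other wells was -0.53 in only set 1. Over the alternatives the log2 ratio of Sftpc over other wells ran from 0.20 to 1.68 for H2-K1, and that of Scgb3a1 over other wells from 1.23 to 3.87 for H2-T23 and from 0.59 to 3.05 for Psmb8. Counts of members past 2-fold, 2 in Sftpc against other wells, 2 in Scgb3a1 against other wells and 1 in Sftpc against Scgb3a1 wells, moved as follows, and the cause was not tested. Sftpc against other wells had 0 with TMM factors, median-of-ratios factors, totals without the 10 most abundant genes, totals above 4680, only set 1, only set 3 or without set 2. It had 1 with a class limit of 5%, without set 3, with H2-K1 and H2-D1 summed (1 gene fewer), without the well of most summed member counts, and without each member's top well; without negative control replicate 1 or 2 it ran from 1 to 2 (the limit was then 410 without replicate 2). Scgb3a1 against other wells had 0 with a minimum of 100 counts, at equal depth, in only set 1, 2 or 3 and without set 3, where fewer members reach the minimum. It had 1 with equal weight per well, a class limit of 5%, without set 1, without set 2, without the 12 wells with ciliated markers, without the well of most summed member counts and without each member's top well. Sftpc against Scgb3a1 wells had 2 with equal weight per well, 3 at a 1.5-fold limit, and 0 with a minimum of 100 counts, a class limit of 5%, in each set alone and without each set. At equal depth it had 1 as before, but a different gene, H2-D1 (higher, 1.12), since H2-T23 (-0.42) was then under the minimum. No paired analysis was possible because the numbers that cell wells and control wells share only name wells, and no comparison is made between them. Depth limits H2-T23, Tap1, Psmb9, Nlrc5 and H2-Q7, with 26, 14, 12, 2 and 0 counts over all kept wells.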

Other observations

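The 59 cell wells at or below the limit of 2340 counts, with 60845 counts in all and a median of 1035 per well, entered no comparison. H2-K1 had 22 counts there (362 CPM, 227 to 547), H2-D1 14 counts (230 CPM), B2m 18 counts (296 CPM), Tapbp 7 counts (115 CPM) and Psmb8 1 count, and the 10 members together stood at 1019 CPM (781 to 1306). H2-T23, H2-Q7, Tap1, Psmb9 and Nlrc5 had 0 counts in these wells, which allows up to 49.3 CPM each.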
